A study of Homo sapiens with 12 samples.

Results

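Interferon-stimulated genes are genes that cells switch on when an interferon binds its receptor. A set of 39 of them was followed by symbol through a deposited table of 75253 genes, and each of the 39 symbols had its row. The table came from RNA sequencing of 2 lines of human metastatic melanoma, A375 and LOX-IMVI BR, each given a control, 6-thio-dG at 5 µM or BIBR1532 at 25 µM. Each of the 6 groups held 2 libraries labelled as biological replicates, and the cells were plated at 25000 per well. 6-thio-dG, a modified guanine nucleoside, is built into telomeres by telomerase, and BIBR1532 is a small molecule that inhibits that enzyme. The labels name no sorting, other cells or introduced alleles for any group. The sources used here do not give the control's vehicle, the exposure time or what BR means.

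Type I interferons bind the receptor chains IFNAR1 and IFNAR2, whose kinases JAK1 and TYK2 activate transcription factors, STAT2 among them. With IRF9, STAT2 is part of a complex that binds the interferon-stimulated response element (ISRE) in promoters and raises the antiviral genes described here. Type II interferon acts on a different promoter site (the gamma-activated site, GAS), and melanoma cells can carry part of either programme without added interferon, often started by sensors of nucleic acid in the cytosol.

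The 12 libraries held 11813388 to 25822381 counts. Levels are given as CPM, the count over the TMM-scaled library total, and levels of different genes are compared only after division by transcript length in kilobases. A gene was called changed at a Benjamini-Hochberg adjusted p under 0.05 in edgeR's quasi-likelihood test over 29114 genes, of which 14439 had gene symbols, and log2 fold changes are given ± SE. Of the 39 genes, 36 passed the low-count filter. Between replicates the members differed by a median of 0.48 (A375 control), 0.69 (A375 6-thio-dG), 0.24 (A375 BIBR1532), 0.10 (LOX-IMVI BR control), 0.22 (LOX-IMVI BR 6-thio-dG) and 0.21 (LOX-IMVI BR BIBR1532) on the log2 scale. The lineage factor SOX10 marked A375 (512 and 590.4 CPM in the controls) and was nearly missing from LOX-IMVI BR (0.502 and 0.683 CPM), while the pigment genes PMEL and MLANA stayed under 1 CPM in the controls of both lines, and MITF and S100B were also called lower in LOX-IMVI BR (-2.41 and -6.11 on the log2 scale). The 8 melanocyte markers summed to 572 to 645 CPM in the A375 controls and to 10.1 to 10.3 CPM in those of LOX-IMVI BR. Summed markers of leukocytes came to at most 9.01 CPM in any library, and those of plasmacytoid dendritic cells, a main source of type I interferon, to at most 14.2 CPM, nearly all of it IL3RA, while CLEC4C was at 0 counts in all 12 libraries.

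RefSeq promoter windows (build GRCh38.p14), from 250 bases before to 50 bases after the transcription start, were found for 32 of the 39 genes, with DDX58 listed under its newer symbol RIGI. The core of the ISRE, searched on both strands as GAAA repeated after a gap of any 2 bases, was present in a window of 22 of these 32 genes (68.8%) and of 4.38% of the 27305 genes of the promoter table. The GAS, TTCNNNGAA, which reads alike on both strands, was present in 9 (28.1%) and in 9.38%. The genes without an entry were IFIT2, OAS2, OASL, IRF7, USP18, MX2 and GBP2. The motifs were counted separately, also where matches shared bases. The following 6 windows hold the ISRE core and are shown because their genes carry the contrasts described next: IFI6, OAS3, GBP1 and IFITM1 fell with 6-thio-dG in LOX-IMVI BR, and IFIT1 and HERC5 were among the genes farthest apart between the untreated lines. Capitals mark the ISRE core on either strand, sequences run 5′ to 3′ along the gene, and positions are chr1:27672143-27672442 on the minus strand for IFI6, chr12:112938224-112938523 on the plus strand for OAS3, chr1:89065159-89065458 on the minus strand for GBP1, chr11:313790-314089 on the plus strand for IFITM1, chr10:89392373-89392672 on the plus strand for IFIT1 and chr4:88456869-88457168 on the plus strand for HERC5.
IFI6: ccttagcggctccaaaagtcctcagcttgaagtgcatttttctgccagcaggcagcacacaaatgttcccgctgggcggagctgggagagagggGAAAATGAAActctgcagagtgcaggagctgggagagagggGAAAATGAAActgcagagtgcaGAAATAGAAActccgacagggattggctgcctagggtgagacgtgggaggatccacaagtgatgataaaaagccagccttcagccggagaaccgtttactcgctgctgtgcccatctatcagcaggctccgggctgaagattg
OAS3: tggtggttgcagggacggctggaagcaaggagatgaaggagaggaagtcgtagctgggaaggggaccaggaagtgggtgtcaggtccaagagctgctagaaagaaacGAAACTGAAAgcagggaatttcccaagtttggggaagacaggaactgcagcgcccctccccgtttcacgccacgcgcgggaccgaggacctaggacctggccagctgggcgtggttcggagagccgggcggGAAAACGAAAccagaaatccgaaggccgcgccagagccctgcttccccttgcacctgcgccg
GBP1: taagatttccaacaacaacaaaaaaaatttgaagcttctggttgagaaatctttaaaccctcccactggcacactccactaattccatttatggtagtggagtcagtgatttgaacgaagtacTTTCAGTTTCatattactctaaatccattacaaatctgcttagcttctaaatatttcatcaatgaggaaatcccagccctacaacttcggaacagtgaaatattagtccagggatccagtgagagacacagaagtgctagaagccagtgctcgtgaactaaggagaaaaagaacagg
IFITM1: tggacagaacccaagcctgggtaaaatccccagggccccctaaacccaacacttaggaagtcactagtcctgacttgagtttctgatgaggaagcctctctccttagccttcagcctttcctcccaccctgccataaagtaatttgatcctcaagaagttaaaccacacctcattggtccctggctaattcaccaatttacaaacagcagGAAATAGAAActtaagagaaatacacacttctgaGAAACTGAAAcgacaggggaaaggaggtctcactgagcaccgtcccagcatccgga
IFIT1: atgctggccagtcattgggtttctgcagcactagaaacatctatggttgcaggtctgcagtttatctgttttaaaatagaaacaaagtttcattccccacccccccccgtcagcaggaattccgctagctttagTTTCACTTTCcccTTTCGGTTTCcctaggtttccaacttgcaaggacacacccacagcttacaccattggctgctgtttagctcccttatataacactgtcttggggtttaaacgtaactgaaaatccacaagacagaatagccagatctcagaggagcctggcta
HERC5: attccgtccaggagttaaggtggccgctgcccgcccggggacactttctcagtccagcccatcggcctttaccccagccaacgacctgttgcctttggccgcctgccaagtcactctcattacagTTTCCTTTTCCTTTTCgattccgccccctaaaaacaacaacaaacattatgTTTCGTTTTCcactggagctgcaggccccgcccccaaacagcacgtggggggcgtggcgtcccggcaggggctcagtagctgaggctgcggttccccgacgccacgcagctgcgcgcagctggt
The windows of IFI6 and HERC5 held 3 cores each, some of them overlapping in HERC5, those of OAS3, IFITM1 and IFIT1 held 2 each, and that of GBP1 held 1. A match describes the letters only. The window of OAS1, a gene that also fell in LOX-IMVI BR, held no match. It did hold GAAACGAAA, where the gap is 1 base, a form that the search left out. A window without a match may therefore still hold an ISRE.

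The first comparison set the untreated lines side by side, since a compound acts on whatever level a line starts from. LOX-IMVI BR carried the higher level of most members. In bulk RNA, more cells expressing a gene and more RNA per cell cannot be told apart, here and in what follows. Of the 36 tested, 22 were called higher and 6 lower in LOX-IMVI BR, against 21.1% of all genes called higher and 28.8% lower (22.5% and 32.3% of symbol-named genes). Markers of other cell types differed between the same libraries. The 4 fibroblast markers summed to 11.7 to 13.9 CPM in A375 and 1624 to 1647 CPM in LOX-IMVI BR. Nearly all of the LOX-IMVI BR sum was COL1A1, called higher (9.01 on the log2 scale). PDGFRB was called lower (-2.47), and COL1A2 and DCN were not called. The leukocyte markers summed to 2.54 to 2.90 CPM in A375 and 0.552 to 0.592 CPM in LOX-IMVI BR. The endothelial ones summed to 2.35 to 2.39 and 4.78 to 5.42 CPM, with KDR called higher (1.76) and VWF lower (-2.13). The part of these markers in the members' differences was not tested. The median log2 difference of the members was 1.41, beside -0.12 over all genes and -0.17 over symbol-named genes. Per kilobase, the most abundant members were IFI6 in LOX-IMVI BR (100.1 CPM per kb) and IFI35 in A375 (29.6 CPM per kb).

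**Figure D1:**
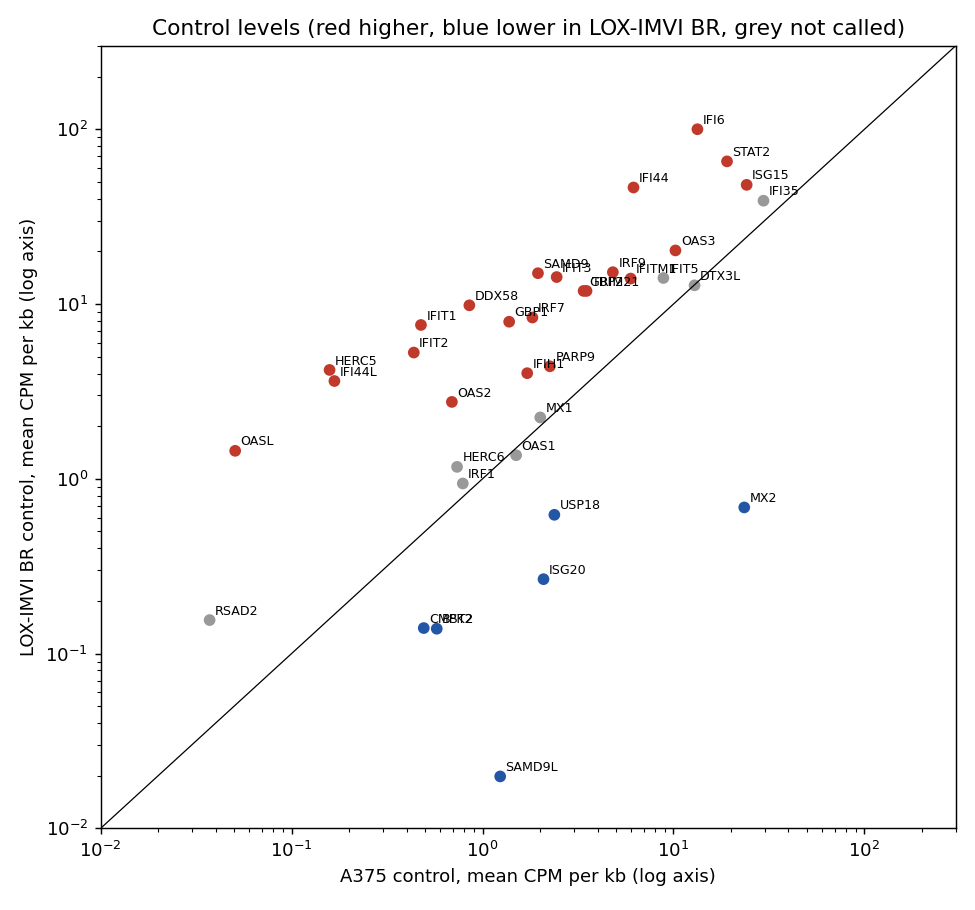
Mean level of each member in the A375 controls (x axis) and the LOX-IMVI BR controls (y axis), in CPM per kb on log axes, 2 libraries per mean; the diagonal marks equal levels. The 22 members called higher in LOX-IMVI BR lie above the diagonal, with OASL, HERC5, IFI44L and IFIT1 farthest from it, and MX2 and SAMD9L lie farthest below.

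Among proteins that bind foreign RNA, the IFIT family separated the lines widely. IFIT1, which holds viral RNA lacking the host's cap methylation, was at 1.94 and 2.44 CPM in the A375 controls and 33.2 and 36.8 CPM in those of LOX-IMVI BR (log2 fold change 4.01 ± 0.36, edgeR adjusted p = 4.26e-07). IFIT2 stood at 1.42 and 1.81 against 19.2 and 19.8 CPM (log2 fold change 3.62 ± 0.40, edgeR adjusted p = 3.83e-06) and IFIT3, which stabilises IFIT1, at 5.68 and 6.52 against 35.7 and 35.6 CPM (log2 fold change 2.55 ± 0.51, edgeR adjusted p = 0.00089). The libraries of the 2 lines did not overlap for any of the 3. They did not overlap for IFIT5 either, which was not called (log2 fold change 0.67). With 2 libraries per group, a lack of overlap is therefore weak evidence, here and in what follows. DDX58, the RNA sensor RIG-I, was at 4.08 and 3.35 CPM in A375 and 43.3 and 42.3 CPM in LOX-IMVI BR (log2 fold change 3.51 ± 0.50, edgeR adjusted p = 4.26e-05). IFIH1, the sensor MDA5 of long double-stranded RNA, differed less, at 5.98 and 6.34 against 15.6 and 13.3 CPM (log2 fold change 1.23 ± 0.45, edgeR adjusted p = 0.0335).

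The OAS proteins make the second messenger that activates RNase L, and they did not share one pattern. OASL, a relative without that activity, had 0.15 and 0.181 CPM in A375 and 5.07 and 4.37 CPM in LOX-IMVI BR (log2 fold change 4.83 ± 0.47, edgeR adjusted p = 1.03e-06). OAS2 was at 3.55 and 2.99 against 13 and 13.1 CPM (log2 fold change 1.98 ± 0.34, edgeR adjusted p = 0.000259) and OAS3 at 57.4 and 80.2 against 138 and 135 CPM (log2 fold change 0.99 ± 0.30, edgeR adjusted p = 0.013). OAS1 was at 3.44 and 3.8 CPM in A375 and 2.81 and 3.78 CPM in LOX-IMVI BR and was not called. The exonuclease ISG20 went the other way, with 3.22 and 4.53 CPM in A375 and 0.352 and 0.637 CPM in LOX-IMVI BR (log2 fold change -2.92 ± 0.44, edgeR adjusted p = 6.88e-05).

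Of the transcription factors, all but IRF1 were higher in LOX-IMVI BR. STAT2 was at 66.4 and 57.9 CPM in A375 and 208 and 219 CPM in LOX-IMVI BR (log2 fold change 1.78 ± 0.30, edgeR adjusted p = 0.000174), and its partner IRF9 at 7.55 and 10.1 against 26.7 and 29.3 CPM (log2 fold change 1.67 ± 0.32, edgeR adjusted p = 0.000577). IRF7, which amplifies interferon production, was at 3.59 and 3.89 against 17.9 and 16.5 CPM (log2 fold change 2.20 ± 0.33, edgeR adjusted p = 6.44e-05). IRF1, the factor most tied to type II interferon, was at 2.02 and 3.62 against 3.82 and 2.91 CPM, and the groups overlapped. In the ISG15 system, in which a ubiquitin-like protein is attached to newly made proteins, the ligase HERC5 was at 0.748 and 0.362 CPM in A375 and 14.5 and 15 CPM in LOX-IMVI BR (log2 fold change 4.59 ± 0.44, edgeR adjusted p = 9.38e-07). ISG15 itself was less apart, at 11.5 and 26.5 against 38.6 and 37.1 CPM (log2 fold change 1.00 ± 0.36, edgeR adjusted p = 0.0295), with A375 control replicate 1 well below the rest. USP18, which removes ISG15 and damps IFNAR signalling, was lower in LOX-IMVI BR (2.88 and 7.24 against 1.56 and 1.09 CPM, log2 fold change -1.89 ± 0.42, edgeR adjusted p = 0.00193). Higher calls were also made for TRIM21, an intracellular antibody receptor and ubiquitin ligase (1.79), and PARP9, an ADP-ribosyltransferase relative (0.96), whereas HERC6 and DTX3L were not called.

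The antiviral GTPases were split. MX2, which blocks nuclear entry of retroviral genomes, was an A375 gene, at 67 and 75.9 CPM against 2.26 and 1.91 CPM in LOX-IMVI BR (log2 fold change -5.09 ± 0.36, edgeR adjusted p = 4.32e-08). Its relative MX1 was at 6.13 and 7.79 against 7.38 and 8.19 CPM and was not called. The guanylate-binding proteins, which attack membranes around microbes, were higher in LOX-IMVI BR, with GBP1 at 3.48 and 4.89 against 24 and 24.1 CPM (log2 fold change 2.54 ± 0.48, edgeR adjusted p = 0.000512) and GBP2 at 7.14 and 7.88 against 27.1 and 25.7 CPM (log2 fold change 1.82 ± 0.32, edgeR adjusted p = 0.000273). The membrane protein IFITM1, which hinders viral fusion, was at 4.86 and 5.34 against 11.4 and 12.5 CPM (log2 fold change 1.23 ± 0.37, edgeR adjusted p = 0.0128). BST2, which tethers budding virions, and CMPK2, a nucleotide kinase, were scarce and lower in LOX-IMVI BR, at 0.1 and 0.182 and 0.352 and 0.455 CPM there against 0.449 and 0.724 and 1.57 and 1.27 CPM in A375. BST2 lost its call in 8 of 12 alternatives. These were DESeq2's test, both forms of the GC correction, the replicate block and leaving out any 1 of the 4 libraries.

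Among the remaining members, IFI6, a mitochondrial and endoplasmic reticulum protein that counters cell death, was at 7.96 and 14.5 CPM in A375 and 88.2 and 80.1 CPM in LOX-IMVI BR (log2 fold change 2.92 ± 0.36, edgeR adjusted p = 1.13e-05). IFI44 was at 8.34 and 12.5 against 79.8 and 77 CPM (log2 fold change 2.92 ± 0.44, edgeR adjusted p = 7.06e-05) and IFI44L at 0.972 and 0.996 against 20.9 and 21.7 CPM (log2 fold change 4.43 ± 0.34, edgeR adjusted p = 1.07e-07). The growth-restraining neighbours SAMD9 and SAMD9L went opposite ways. SAMD9 was at 6.99 and 19.7 CPM in A375 and 105 and 101 CPM in LOX-IMVI BR (log2 fold change 2.96 ± 0.79, edgeR adjusted p = 0.00655), while SAMD9L was at 6.69 and 11 against 0.1 and 0.182 CPM (log2 fold change -5.87 ± 1.04, edgeR adjusted p = 0.000356). SAMD9 was not called without A375 control replicate 1, and ISG15, IFITM1, OAS3, IFIH1, PARP9 and CMPK2 each lost the call when at least 1 library was left out. The other 20 of the 28 calls held in every alternative tried.

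**Figure D2:**
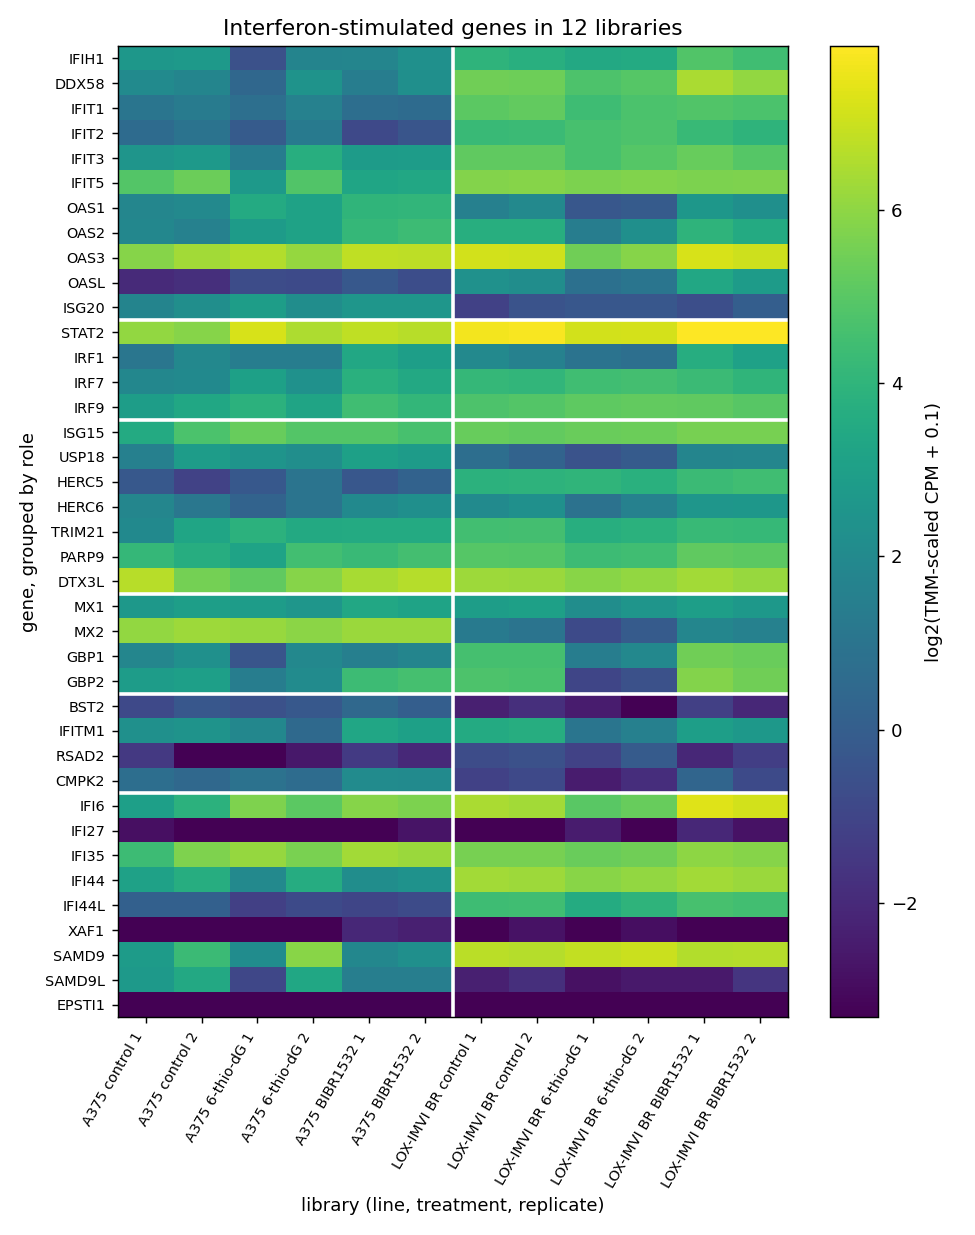
Level of each of the 39 genes (rows, grouped by role and separated by white lines) in each of the 12 libraries (columns), as log2 of TMM-scaled CPM + 0.1; a white line divides the lines. LOX-IMVI BR columns are brighter for most rows, MX2 and SAMD9L are brighter in A375, and EPSTI1 is dark throughout.

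Of the 3 members below the count filter, EPSTI1 had 0 counts in all 12 libraries, where the limit that a count of 0 allows (3 counts, counting error only) lay between 0.103 and 0.272 CPM. IFI27 had 0 to 2 counts and XAF1, a pro-apoptotic gene, had 0 to 3 counts per library. RSAD2, which encodes the antiviral radical-SAM enzyme viperin, passed the filter at 0 to 0.828 CPM and was called in no comparison.

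In A375, members changed in both directions with 6-thio-dG. IFI6, OAS1, OAS2 and STAT2 rose, and IFIH1 and GBP2 fell. These 4 higher and 2 lower calls among 36 (11.1% and 5.56%) stand against 9.86% of all genes called higher and 8.21% lower (7.81% and 12.9% of symbol-named genes). The members' shares were thus near those of all genes. The members' median log2 fold change was 0.07, beside 0.03 over all genes and -0.25 over symbol-named genes. The split moved with the scaling: 10 were called higher and 1 lower with upper-quartile factors, and 4 higher and 4 lower with DESeq2 size factors. Over all genes, upper-quartile factors put 80.0% of the calls on the higher side, against 54.6% with TMM.

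IFI6 rose with 6-thio-dG from 7.96 and 14.5 CPM to 53.1 and 33 CPM (log2 fold change 1.95 ± 0.35, edgeR adjusted p = 0.00237). It was called in every alternative tried. OAS1 rose from 3.44 and 3.8 to 11.4 and 8.73 CPM (log2 fold change 1.48 ± 0.31, edgeR adjusted p = 0.00592) and OAS2 from 3.55 and 2.99 to 7.1 and 8.6 CPM (log2 fold change 1.25 ± 0.35, edgeR adjusted p = 0.0231), in both cases without overlap of the libraries. STAT2 went from 66.4 and 57.9 to 149.9 and 91.8 CPM (log2 fold change 0.96 ± 0.29, edgeR adjusted p = 0.0341), with the treated replicates themselves apart. OASL had 0.501 and 0.47 CPM when treated against 0.15 and 0.181 CPM untreated and was not called (edgeR adjusted p = 0.0938).

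IFIH1 went from 5.98 and 6.34 CPM to 0.585 and 3.22 CPM (log2 fold change -1.65 ± 0.50, edgeR adjusted p = 0.0332), with treated replicate 1 far below replicate 2. GBP2 fell from 7.14 and 7.88 to 2.59 and 4.16 CPM (log2 fold change -1.14 ± 0.33, edgeR adjusted p = 0.0289). Neither gene was called without treated replicate 1, and 21 members (9 higher, 12 lower) were called without treated replicate 2, when the calls over all genes also went from 18.1% to 32.8%. The treated replicates also differed in RNA composition: for the eighth of genes with the lowest GC content the fitted GC trend was -1.87 (log2) in treated replicate 1 and -0.10 in replicate 2, against -0.20 and -0.27 in the controls. The part of RNA composition in these calls was not tested beyond a GC correction, with which 7 members were called higher and 3 lower. STAT2 lost its call without treated replicate 1 or control replicate 2, OAS2 without control replicate 2, and IFIH1 without either control. In a fit of the A375 libraries alone, OAS1, OAS2, STAT2, IFIH1 and GBP2 all lost their calls and IFI6 kept its own. That fit called 5.11% of all genes. Among markers of other cell types, LYZ, ITGAM, KDR and IL3RA were called higher in these libraries, and the 4 endothelial markers summed to 2.35 to 2.39 CPM in the controls and 4.09 to 5.98 CPM with 6-thio-dG. Of the melanocyte markers, PMEL was called higher and MITF and TYRP1 lower. Their part in the members' changes was not tested.

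With BIBR1532, 11 members passed the test in A375. Called higher were OAS1, OAS2, OASL, IRF1, IRF7, IRF9, GBP2, CMPK2 and IFI6, and called lower were IFIT2 and IFIT5. The counts, 9 higher and 2 lower of 36, stand against 8.49% of all genes called higher and 7.29% lower (8.95% and 10.3% of symbol-named genes). Members had a median log2 fold change of 0.57, beside -0.04 over all genes and -0.15 over symbol-named genes. With upper-quartile factors the members split 10 to 1 and 66.4% of the calls over all genes were higher, against 53.8% with TMM. This comparison and that of 6-thio-dG share the A375 controls. Summed over the 10 leukocyte markers, A375 had 2.54 to 2.90 CPM untreated, 7.18 to 7.79 CPM with 6-thio-dG and 8.82 to 9.01 CPM with BIBR1532, the latter led by ITGAM and LYZ with CD3E, MS4A1 and FCGR3A among the 4 at 0 counts. The 4 endothelial markers summed to 7.47 to 7.89 CPM with BIBR1532, with KDR called higher, and the 8 melanocyte markers to 1301 to 1464 CPM, with SOX10, PMEL and S100B called higher and MITF lower. Their part in the members' changes was not tested.

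Of the 4 OAS genes, 3 rose. OAS2 rose from 3.55 and 2.99 to 17.5 and 20.8 CPM (log2 fold change 2.54 ± 0.35, edgeR adjusted p = 0.000334). OAS1 rose from 3.44 and 3.8 to 16.1 and 16.4 CPM (log2 fold change 2.17 ± 0.31, edgeR adjusted p = 0.000481). OASL rose from 0.15 and 0.181 to 0.762 and 0.533 CPM (log2 fold change 1.98 ± 0.56, edgeR adjusted p = 0.0285), a change at very low counts that was not called when any 1 of the 4 libraries was left out. OAS3, the OAS gene with the highest level per kb, was at 57.4 and 80.2 CPM before and 114 and 110.0 CPM after, apart but not called (edgeR adjusted p = 0.117).

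Of the 4 transcription factors, 3 rose. IRF1 went from 2.02 and 3.62 to 10.4 and 7.76 CPM (log2 fold change 1.73 ± 0.36, edgeR adjusted p = 0.00664), IRF7 from 3.59 and 3.89 to 14 and 10.9 CPM (log2 fold change 1.74 ± 0.32, edgeR adjusted p = 0.00335) and IRF9 from 7.55 and 10.1 to 21.7 and 17.1 CPM (log2 fold change 1.14 ± 0.32, edgeR adjusted p = 0.0271). STAT2, at 112 and 104 CPM against 66.4 and 57.9 CPM in the controls, was not called (edgeR adjusted p = 0.0723). GBP2 rose from 7.14 and 7.88 to 20.6 and 24.1 CPM (log2 fold change 1.58 ± 0.32, edgeR adjusted p = 0.00521), whereas GBP1 was at 3.48 and 4.89 CPM before and 2.78 and 3.35 CPM after and was not called. CMPK2 rose from 1.57 and 1.27 to 4.22 and 4.02 CPM (log2 fold change 1.51 ± 0.38, edgeR adjusted p = 0.0178) and IFI6 from 7.96 and 14.5 to 57.6 and 51.6 CPM (log2 fold change 2.29 ± 0.35, edgeR adjusted p = 0.000855). None of the 7 genes of the ISG15 system and its ligases was called, with a median of 0.55.

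The IFIT family did not follow. IFIT5 fell from 29.3 and 41.8 to 9.46 and 10.6 CPM (log2 fold change -1.82 ± 0.48, edgeR adjusted p = 0.021) and IFIT2 from 1.42 and 1.81 to 0.448 and 0.679 CPM (log2 fold change -1.49 ± 0.46, edgeR adjusted p = 0.0406). IFIT1 (-0.54) and IFIT3 (0.24) were not called. The lower calls had a median transcript GC of 40.1% and the higher ones 51.4%, and the GC trend of the low-GC eighth was -1.36 and -1.07 in the 2 treated libraries. Its part in the calls was not tested beyond the GC correction, with which 11 were called higher and 2 lower. Both falls were lost when any 1 of the 4 libraries was left out. Without BIBR1532 replicate 1 the count was 4 and without replicate 2 it was 5, all higher, while the calls over all genes went from 15.8% to 2.97% and 3.11%. The calls of IFI6, OAS1 and OAS2 alone held in every alternative.

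**Figure D3:**
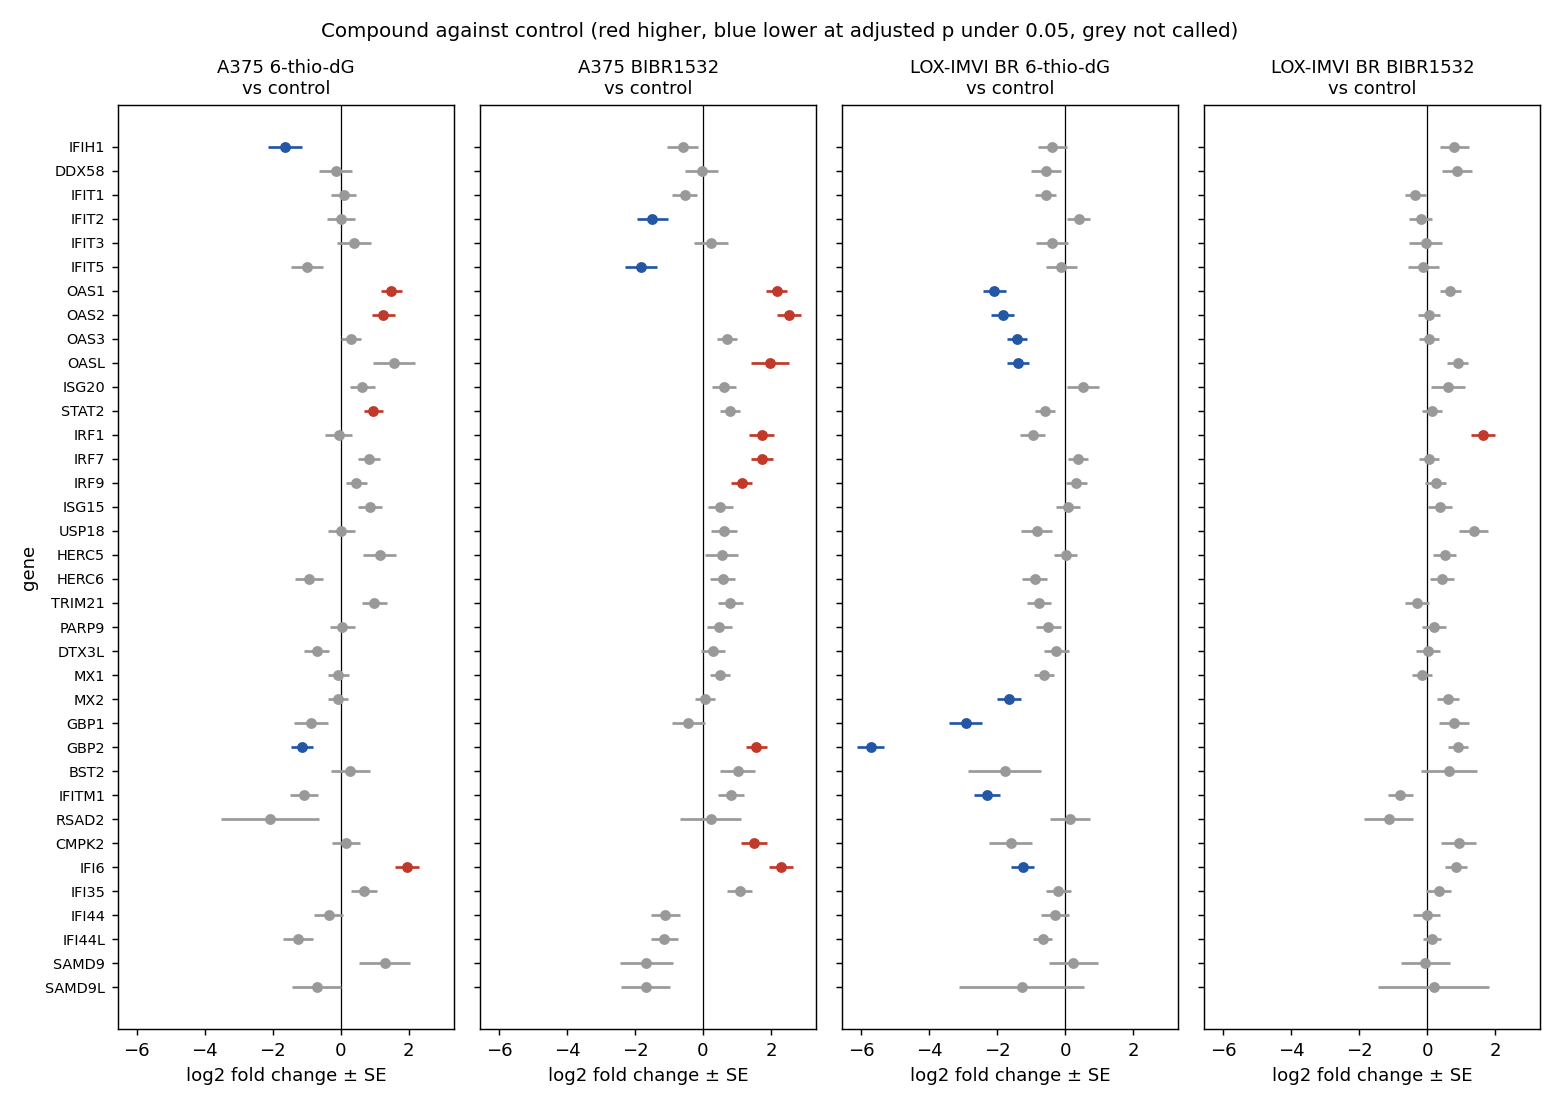
Log2 fold change (points) ± SE (bars) of the 36 tested members for each compound against control, 1 panel per line and compound; red marks higher calls, blue lower calls and grey no call. A375 with BIBR1532 shows 9 red and 2 blue points, and LOX-IMVI BR with 6-thio-dG shows 9 blue points led by GBP2 at -5.71.

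In LOX-IMVI BR, 6-thio-dG lowered members and raised none that passed the test. The genes that fell were OAS1, OAS2, OAS3, OASL, MX2, GBP1, GBP2, IFITM1 and IFI6. That is 9 lower and 0 higher of 36, against 7.16% of all genes called lower and 9.81% higher (10.8% and 6.21% of symbol-named genes). DESeq2's test also gave 9 lower and 0 higher, and 13 members had an unadjusted p under 0.05 in either direction. The members' median was -0.61 on the log2 scale, beside 0.05 over all genes and -0.13 over symbol-named genes. Upper-quartile factors left 8 lower and 0 higher members, while the higher share of all calls went from 57.8% to 73.5%.

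The largest fall was that of GBP2, a GTPase. GBP2 fell from 27.1 and 25.7 CPM to 0.401 and 0.586 CPM (log2 fold change -5.71 ± 0.40, edgeR adjusted p = 1.74e-06). GBP1 fell from 24 and 24.1 to 2.61 and 3.69 CPM (log2 fold change -2.93 ± 0.48, edgeR adjusted p = 0.000981). MX2, already scarce in this line, fell from 2.26 and 1.91 to 0.481 and 0.828 CPM (log2 fold change -1.65 ± 0.36, edgeR adjusted p = 0.00612). MX1 was at 7.38 and 8.19 CPM before and 4.41 and 5.69 CPM after and was not called.

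All 4 OAS genes fell, without overlap of the libraries. The libraries did not overlap for IFIT5 either, at a log2 fold change of -0.11 and without a call. OAS1 went from 2.81 and 3.78 to 0.722 and 0.828 CPM (log2 fold change -2.08 ± 0.34, edgeR adjusted p = 0.00105) and OAS2 from 13 and 13.1 to 2.61 and 4.66 CPM (log2 fold change -1.84 ± 0.34, edgeR adjusted p = 0.00202). OAS3 was at 138 and 135 CPM before and 44.3 and 58.3 CPM after (log2 fold change -1.41 ± 0.30, edgeR adjusted p = 0.00538), and OASL at 5.07 and 4.37 CPM before and 1.64 and 1.97 CPM after (log2 fold change -1.38 ± 0.33, edgeR adjusted p = 0.00943). IFITM1 fell from 11.4 and 12.5 to 1.96 and 2.9 CPM (log2 fold change -2.29 ± 0.38, edgeR adjusted p = 0.00111) and IFI6 from 88.2 and 80.1 to 32.6 and 38.4 CPM (log2 fold change -1.25 ± 0.34, edgeR adjusted p = 0.0199).

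Many members that set LOX-IMVI BR apart from A375 at the start were not called. IFIT1 was at 21.1 and 26.2 CPM with 6-thio-dG (-0.57 on the log2 scale), IFIT2 at 24.4 and 27.4 CPM (0.41) and HERC5 at 16 and 13.8 CPM (0.01). ISG15 (0.09), IRF7 (0.38), IRF9 (0.33) and SAMD9 (0.25) were not called either, nor was any of the 4 transcription factors. Of the 9 genes that fell, 5 had a promoter entry and 4 of these held an ISRE core. Among the 27 not called, 24 had an entry and 16 a core. Other comparisons did not share this order. Among members with an entry, 1 of 5 higher calls with BIBR1532 in A375 held a core, against 18 of 23 not called. For BIBR1532 against 6-thio-dG in LOX-IMVI BR it was 4 of 9 higher calls, against 16 of 20. Between the controls it was 14 of 17 higher calls, against 4 of 8.

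COL1A1, a fibroblast and mesenchymal collagen gene, fell in the same libraries from 1640.4 and 1618 to 15 and 15.9 CPM, and the sum of the 4 fibroblast markers from between 1624 and 1647 to between 17.6 and 19.2 CPM. PTPRC, the pan-leukocyte gene CD45, had 2.33 and 1.35 CPM in the treated libraries and 0.151 and 0.137 CPM in the controls, and the 10 leukocyte markers summed to 0.552 to 0.592 CPM in the controls and 1.93 to 2.97 CPM in the treated libraries, with 4 of the 10 at 0 counts. The 4 endothelial markers went from a sum of 4.78 to 5.42 CPM to one of 1.10 to 1.64 CPM, with KDR called lower. The part of these changes in the members' falls was not tested. GBP1, GBP2, IFITM1 and OAS1 were called lower in every alternative, while OAS2 lost its call without 6-thio-dG replicate 1, OAS3 and MX2 also without control replicate 1, and OASL and IFI6 when any 1 of the 4 libraries was left out. The count fell to 4 without 6-thio-dG replicate 1 and to 5 without control replicate 1, while the calls over all genes went from 17% to 5.63% and 5.1%.

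With BIBR1532 in LOX-IMVI BR, IRF1 alone was called, 1 of 36 higher and 0 lower, against 2.9% of all genes called higher and 0.69% lower (3.03% and 0.748% of symbol-named genes). IRF1 rose from 3.82 and 2.91 to 12.7 and 8.56 CPM (log2 fold change 1.65 ± 0.35, edgeR adjusted p = 0.0154), without overlap. The members' median was 0.22, beside 0.04 over all genes and 0.09 over symbol-named genes, and 7 members had an unadjusted p under 0.05. DESeq2's test called 1 higher and 0 lower. IRF1 was not called without BIBR1532 replicate 1 or without either control. USP18 had 3.36 and 3.46 CPM with BIBR1532 against 1.56 and 1.09 CPM without (edgeR adjusted p = 0.098), and GBP2 had 55.6 and 43.5 CPM with it against 27.1 and 25.7 CPM without (edgeR adjusted p = 0.131). A fit of this line's 6 libraries alone, which does not take in the wider spread of A375, called 12 members higher and 5 lower with BIBR1532, and 4 higher and 23 lower with 6-thio-dG. In that fit 44.8% of all genes were called with BIBR1532, a share close to that of the members. With 6-thio-dG it called 32% of all genes higher and 30.8% lower. The leukocyte markers summed to 1.5 to 2.33 CPM with BIBR1532, with ITGAM called higher, and the melanocyte markers to 25.8 to 27.3 CPM, with TYRP1 called higher, and their part was not tested.

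**Figure D4:**
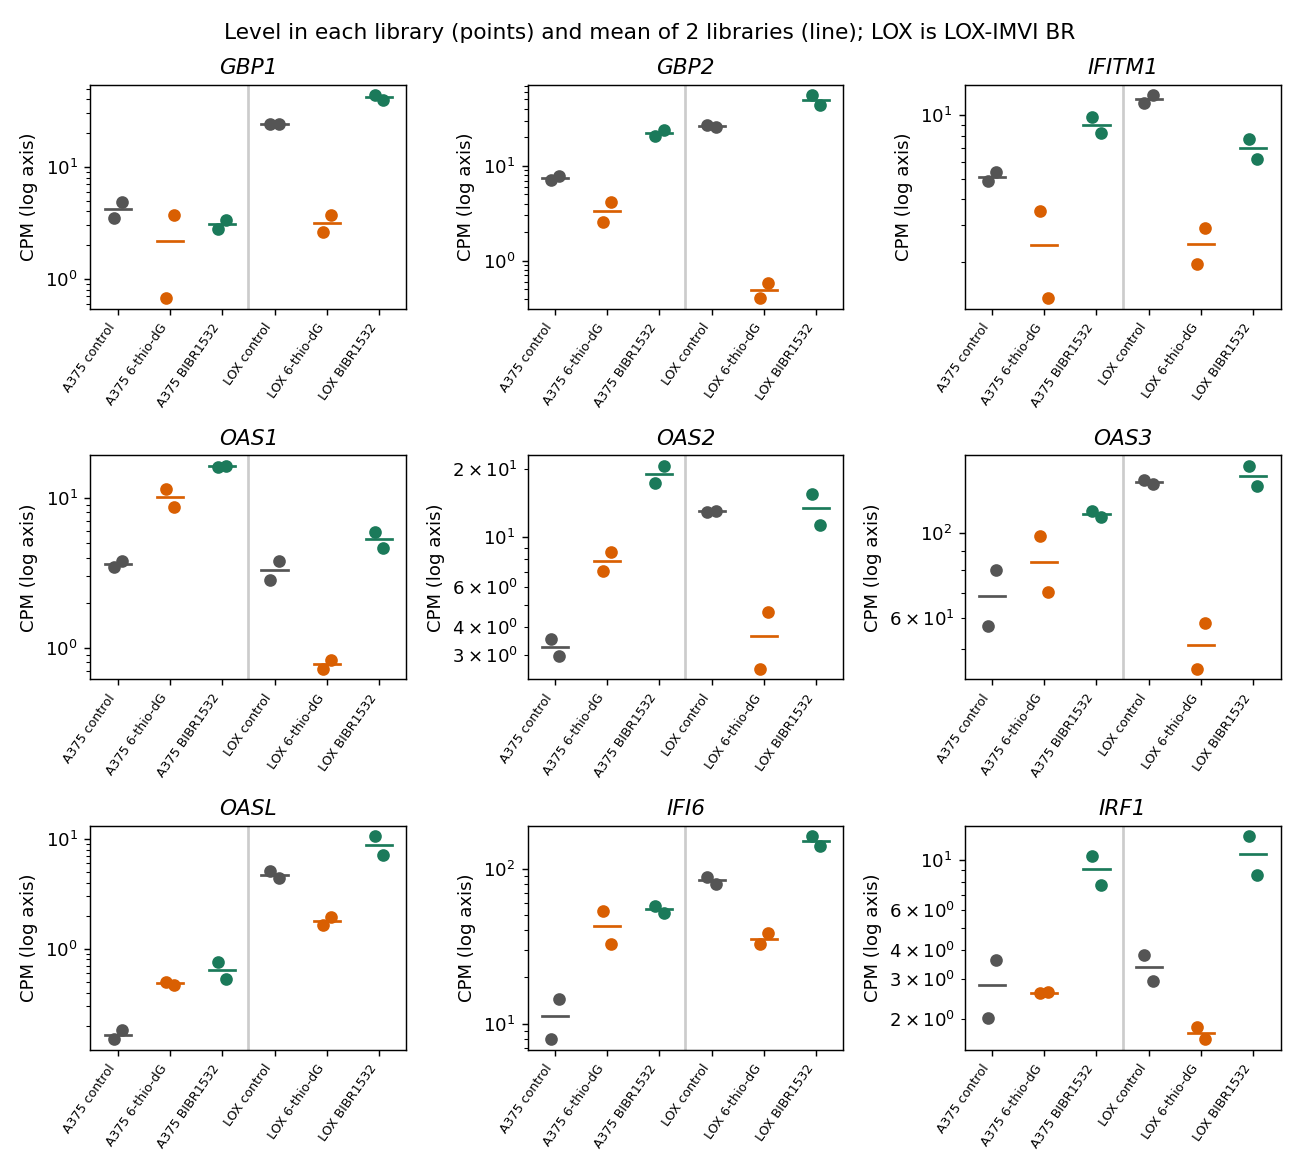
Level in CPM (log axis) of 9 members in every library (points) with the mean of 2 libraries (line), A375 on the left and LOX-IMVI BR on the right of each panel. The 6-thio-dG points of OAS1, OAS2 and IFI6 lie above the controls in A375 and below them in LOX-IMVI BR.

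Whether a compound acted differently in the lines was tested by the difference of the log2 fold changes. For 6-thio-dG, 7 of 36 members differed, all with the lower value in LOX-IMVI BR, against 3.06% of all genes called lower and 2.48% higher (4.16% and 3.1% of symbol-named genes). The median of this difference over the members was -0.82, beside 0.10 over all genes and 0.14 over symbol-named genes. OAS1 gave -3.56 ± 0.47 (edgeR adjusted p = 0.000575), OAS2 -3.09 ± 0.48 (edgeR adjusted p = 0.00184) and IFI6 -3.20 ± 0.49 (edgeR adjusted p = 0.00156), and each of these was called higher in A375 and lower in LOX-IMVI BR. The higher calls of OAS1 and OAS2 were lost when the A375 libraries were fitted alone. GBP2 differed by -4.57 ± 0.50 (edgeR adjusted p = 0.000143) although it was called lower in both lines. OASL (-2.95 ± 0.70), OAS3 (-1.70 ± 0.42) and STAT2 (-1.55 ± 0.41) completed the list and each dropped out when any 1 of the 4 LOX-IMVI BR libraries entering the difference was left out. The number was 4 in each of those 4 cases, when 1.5% to 1.54% of all genes were called in place of 5.54%. It was 14 (4 of them higher in LOX-IMVI BR) without A375 6-thio-dG replicate 2, when 21.8% of all genes were called. Without A375 6-thio-dG replicate 1 or without A375 control replicate 2 it was 11, with 7.13% and 7.84% of all genes called.

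The effect of BIBR1532 differed between the lines for 2 members, with 1.55% of all genes called lower and 2.09% higher (1.97% and 2.76% of symbol-named genes). OAS2 gave -2.49 ± 0.47 (edgeR adjusted p = 0.0113) and IRF7 -1.69 ± 0.44 (edgeR adjusted p = 0.0488), both lower in LOX-IMVI BR. The members' median was -0.28, beside 0.14 over all genes and 0.26 over symbol-named genes. Neither call held without BIBR1532 replicate 1 or 2 of A375, or when any 1 of the 4 LOX-IMVI BR libraries in the difference was left out. The number was 1 without A375 control replicate 1 and 5 without A375 control replicate 2, with 7.19% and 4.13% of all genes called in place of 3.64%. Upper-quartile factors took the higher share of all calls from 57.5% to 38.1%. OAS1 (-1.50, edgeR adjusted p = 0.0686) and IRF1 (-0.08, edgeR adjusted p = 0.985) were not called. That these p-values miss the threshold does not show that the lines act alike.

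**Figure D5:**
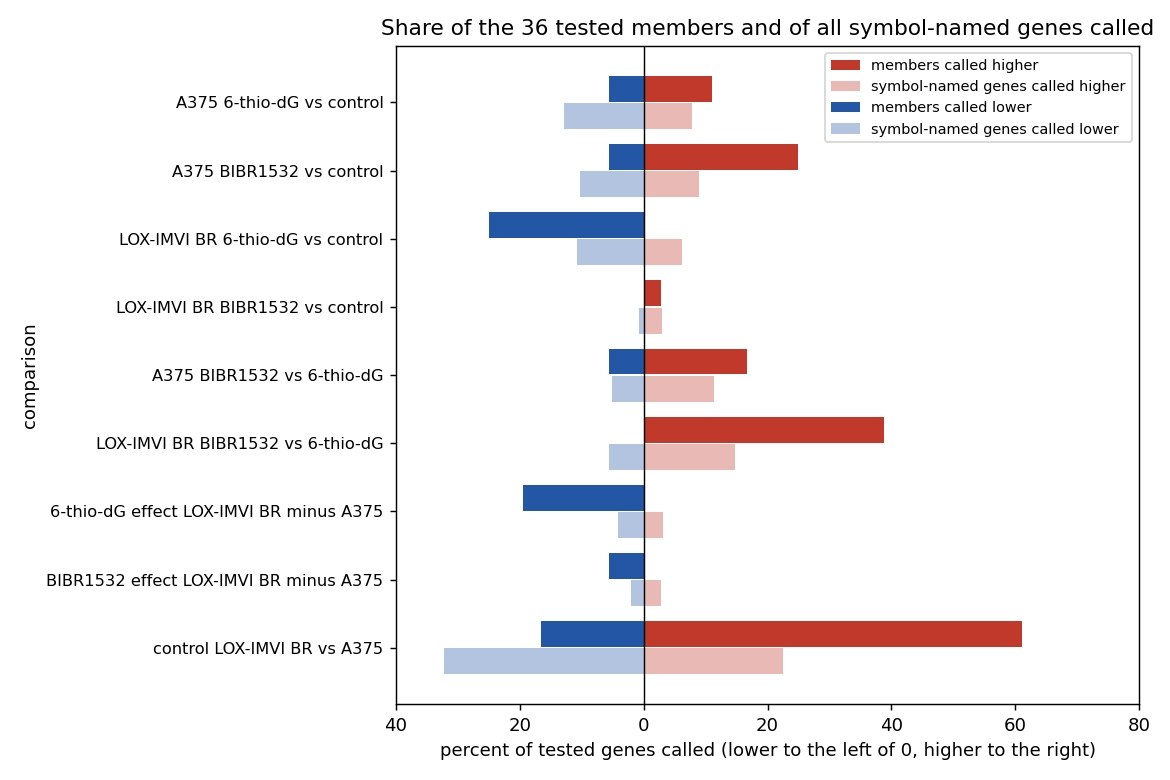
Percent of the 36 tested members (dark bars) and of all symbol-named genes tested (light bars) called higher (right of 0) and lower (left of 0) in each of the 9 comparisons. Members exceed the light bars most in the control comparison (61.1% higher) and in LOX-IMVI BR with BIBR1532 against 6-thio-dG (38.9% higher).

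The compounds were also set against each other in each line, at 25 µM for BIBR1532 and 5 µM for 6-thio-dG, so that compound and dose cannot be told apart. In LOX-IMVI BR, 14 members were higher with BIBR1532 and 0 lower, against 10.7% of all genes called higher and 9.9% lower (14.8% and 5.53% of symbol-named genes). The members' median was 0.76, beside 0.00 over all genes and 0.22 over symbol-named genes. DESeq2's test gave 15 higher and 0 lower, and 18 members had an unadjusted p under 0.05. GBP2 was at 55.6 and 43.5 CPM with BIBR1532 and 0.401 and 0.586 CPM with 6-thio-dG (log2 fold change 6.62 ± 0.41, edgeR adjusted p = 4.93e-07). GBP1 was at 43.7 and 39.9 against 2.61 and 3.69 CPM (log2 fold change 3.73 ± 0.49, edgeR adjusted p = 0.000138). Apart from the 9 genes that fell with 6-thio-dG, the calls took in IRF1, USP18, CMPK2, HERC6 and DDX58. USP18 was at 3.36 and 3.46 against 0.642 and 0.828 CPM (log2 fold change 2.20 ± 0.44, edgeR adjusted p = 0.00278) and DDX58 at 89 and 67.9 against 27.4 and 30.9 CPM (log2 fold change 1.43 ± 0.45, edgeR adjusted p = 0.0355). The call of USP18 held in every alternative tried, and that of DDX58 was lost with upper-quartile factors, with symbol-named genes alone, with a filter of 1 CPM and when any 1 of the 4 libraries was left out. HERC6 lost its call when 6-thio-dG replicate 1 or either BIBR1532 replicate was left out, and CMPK2 and IFITM1 without replicate 1 of either compound. Upper-quartile factors took the higher share of all calls from 52.0% to 30.5% and left 11 members higher and 0 lower. The count was 9 without 6-thio-dG replicate 1, when 7.81% of all genes were called in place of 20.6%.

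In A375, 6 members were higher and 2 lower with BIBR1532 than with 6-thio-dG, against 8.76% of all genes called higher and 7.26% lower (11.4% and 5.13% of symbol-named genes). The members' median was 0.42, beside -0.13 over all genes and 0.02 over symbol-named genes. GBP2, which fell with one compound and rose with the other, was at 20.6 and 24.1 CPM with BIBR1532 and 2.59 and 4.16 CPM with 6-thio-dG (log2 fold change 2.71 ± 0.34, edgeR adjusted p = 0.000126). IFITM1 was at 9.82 and 8.19 against 3.51 and 1.34 CPM (log2 fold change 1.91 ± 0.40, edgeR adjusted p = 0.00482) and IRF1 at 10.4 and 7.76 against 2.59 and 2.62 CPM (log2 fold change 1.80 ± 0.37, edgeR adjusted p = 0.00414). OAS2, CMPK2 and HERC6 were the other higher calls. IFIT2 and SAMD9 were called lower, but the 4.26 and 60.4 CPM of SAMD9 with 6-thio-dG overlapped its 3.54 and 4.75 CPM with BIBR1532. The count was 15 (8 higher, 7 lower) without 6-thio-dG replicate 1 and 12 (all higher) without its replicate 2, while the calls over all genes went from 16% to 25.8% and 21.1%. It was 2 and 3 without BIBR1532 replicate 1 and 2, with 5.31% and 6.14% of all genes called. The call of GBP2 held in every alternative tried, and those of CMPK2, HERC6, OAS2, IFIT2 and SAMD9 were lost when either BIBR1532 replicate was left out. DESeq2 size factors gave 7 higher and 1 lower, and upper-quartile factors took the higher share of all calls from 54.7% to 39.9%.

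Apart from IFNE, the ligand genes that could start the programme were close to absent as RNA. IFNE was called higher in the LOX-IMVI BR controls than in those of A375 (log2 fold change 3.31). IFNB1 had 1 and 0 counts in the A375 controls, then 0 and 1 under 6-thio-dG, then 8 and 10 under BIBR1532. In LOX-IMVI BR it had 0 and 0 counts in the controls, then 6 and 4 under 6-thio-dG, and again 6 and 4 under BIBR1532. These few reads were under the filter and carry no test. The 13 alpha interferon genes together had 0 to 12 counts per library, the 4 lambda interferon genes had 0, and IFNG had at most 1. IFNE, an epithelial interferon, was the 1 of 22 ligand genes that could be tested, at 7.18 and 6.51 CPM in the LOX-IMVI BR controls and 2.33 and 2.01 CPM with BIBR1532 (log2 fold change -1.66 ± 0.35, edgeR adjusted p = 0.0154). In A375 it fell with BIBR1532 too, from 0.823 and 0.453 to 0.135 and 0.0485 CPM (edgeR adjusted p = 0.0109). These were 22 and 5 counts in the controls and 3 and 1 counts with BIBR1532, so the treated level lay at the floor.

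Receptors and kinases were called higher in the LOX-IMVI BR controls for 4 of 9 and lower for 1, against 21.1% and 28.8% of all genes. IFNAR1 was at 44.6 and 28.7 CPM in the A375 controls and 109 and 100.4 CPM in those of LOX-IMVI BR (log2 fold change 1.51 ± 0.35, edgeR adjusted p = 0.00255), JAK1 at 80.3 and 53.5 against 214 and 219.9 CPM (log2 fold change 1.70 ± 0.35, edgeR adjusted p = 0.00102) and JAK2 at 8.71 and 7.15 against 33.1 and 33 CPM (log2 fold change 2.05 ± 0.47, edgeR adjusted p = 0.00212). IFNGR1, a chain of the type II receptor, was called higher as well (2.11). IFNLR1, the specific chain of the type III receptor, was at 9.27 and 17 CPM in A375 and had 1 count in each LOX-IMVI BR control. IFNAR2, IFNGR2, IL10RB and TYK2 were not called.

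With 6-thio-dG, JAK1 fell in LOX-IMVI BR from 214 and 219.9 to 81 and 83.1 CPM (log2 fold change -1.40 ± 0.35, edgeR adjusted p = 0.0122), the only one of the 9 receptors and kinases called there. In A375, 0 of the 9 were called with 6-thio-dG, and with BIBR1532 IFNAR2 rose (1.29) and JAK2 fell (-1.52). No receptor or kinase was called with BIBR1532 in LOX-IMVI BR. Over all genes, 17% were called with 6-thio-dG in LOX-IMVI BR and 3.59% with BIBR1532 there. In A375 the shares were 18.1% and 15.8%.

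Sensors and adaptors outside the 39 were called higher in LOX-IMVI BR than in A375 for 7 of 14 and lower for 0. Over all genes, 21.1% were called higher and 28.8% lower. MB21D1, the DNA sensor cGAS, had 22.8 and 22.8 CPM in LOX-IMVI BR and 2 and 1 counts in the A375 controls. TMEM173, the adaptor STING, rose with 6-thio-dG in A375 from 15 and 27.4 to 98.5 and 64.9 CPM (log2 fold change 1.95 ± 0.34, edgeR adjusted p = 0.00199), together with MAVS (1.14) and TREX1 (1.06), making 3 of 14 higher and 0 lower. In LOX-IMVI BR the DNA sensor AIM2 fell from 24.6 and 23.1 to 1 and 1.48 CPM (log2 fold change -4.25 ± 0.60, edgeR adjusted p = 0.000371) and the kinase IKBKE by -2.16 on the log2 scale, 2 of 14 lower. BIBR1532 raised IKBKE (1.59), the RNA editor ADAR (1.05) and DHX58 (1.02) in A375. Over all genes, 9.86% were called higher with 6-thio-dG in A375 and 8.49% higher with BIBR1532 there. With 6-thio-dG in LOX-IMVI BR 7.16% were called lower.

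A list of 7 genes held genes of negative feedback and UBA7, the enzyme that activates ISG15. With 6-thio-dG in A375, 2 were called higher and 1 lower (median log2 fold change 0.01), against 9.86% and 8.21% of all genes. With BIBR1532 in A375, 2 were higher (0.35), against 8.49%. With 6-thio-dG in LOX-IMVI BR, 3 were lower (-0.78), against 7.16%. With BIBR1532 in LOX-IMVI BR, 0 were called (0.28), against 3.59% called in either direction. SOCS1, which blocks JAK kinases and is itself induced by interferon, started in A375 at 0.15 and 0.181 CPM, reached 0.919 and 0.403 CPM under 6-thio-dG and 2.96 and 2.23 CPM under BIBR1532, and both rises were called (1.97 and 3.97). In LOX-IMVI BR it fell from 4.07 and 4.82 to 0.361 and 0.414 CPM with 6-thio-dG (log2 fold change -3.50 ± 0.40, edgeR adjusted p = 6.58e-05). UBA7 rose with BIBR1532 in A375 from 2.84 and 3.26 to 17.4 and 16.8 CPM (log2 fold change 2.5 ± 0.30, edgeR adjusted p = 0.000101) and fell with 6-thio-dG in LOX-IMVI BR (-1.72). SOCS3 fell with 6-thio-dG in both lines (-1.05 in A375 and -1.46 in LOX-IMVI BR), and CISH rose with it in A375 (1.38).

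A further 41 tested interferon-induced genes that are not among the 39 gave these counts. With 6-thio-dG in LOX-IMVI BR 15 were lower and 1 higher (median -0.83), among them GBP5 (11 and 11.4 to 0.521 and 0.448 CPM, log2 fold change -4.52 ± 0.50, edgeR adjusted p = 7.11e-05), LGALS3BP (-2.70) and IFITM2 (-2.53). BIBR1532 in A375 gave 12 higher and 1 lower (median 0.59), among them TRIM22 (3.17) and APOL1 (2.71), and the repressor ETV7 went from 2 and 1 counts to 58 and 43. 6-thio-dG in A375 gave 6 higher and 3 lower (median 0.00), and BIBR1532 in LOX-IMVI BR gave 2 higher, ETV7 and APOL6, and 0 lower (median 0.28). Between the controls 17 were higher and 7 lower in LOX-IMVI BR, with a median of -0.05. Over all genes, 9.81% were called higher and 7.16% lower with 6-thio-dG in LOX-IMVI BR. The shares higher and lower were 8.49% and 7.29% with BIBR1532 in A375, and 9.86% and 8.21% with 6-thio-dG there. They were 2.9% and 0.69% with BIBR1532 in LOX-IMVI BR, and 21.1% and 28.8% between the controls.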

How the data were processed

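RNA was isolated with TRIzol and sequenced from libraries that do not keep the strand, per the labels' protocols, so reads of overlapping genes on opposite strands cannot be separated, and close copies (IFITM1 and IFITM2, for example) can share reads. The authors deposited 1 table of raw counts, a whole number per gene and library. Builds hg19 and GRCh37 and the tools featureCounts 1.5.1, STAR, GATK and Picard appear, without their roles, in the submitters' processing notes. Of the 75253 rows, 4 with ambiguous date-like names were dropped and 24 date-like rows were kept unnamed.

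Genes were filtered with edgeR 4.0.16 (filterByExpr, R 4.3.3), scaled by TMM and fitted with 1 mean per line and treatment over all 12 libraries by robust quasi-likelihood (6 residual degrees of freedom, biological coefficient of variation 25.8%). P-values were adjusted by Benjamini-Hochberg over 29114 genes per comparison. Alternatives were DESeq2 1.42.0 (size factors and test), upper-quartile factors, other filters, symbol-named genes alone, the line's libraries alone, a replicate block, a GC correction and leaving out each library. GC content and length came from the longest coding transcript in GENCODE, and promoter windows from RefSeq. The files' own build was not used for coordinates. On simulated counts for A375 with BIBR1532 (27104 genes), 100 genes were changed 2-fold and 100 were changed 4-fold. Of these, 69% of the 4-fold and 6% of the 2-fold changes were recovered, so most 2-fold changes were missed there. In the data 4594 of 29114 genes were called in that comparison. With so many more calls the adjusted threshold differs, so the simulated shares do not give the power in the data or in other comparisons. Replicates of every group differed by more than counting noise. Genes named are members called in a compound comparison or between the controls, and per pathway list at most 3 called genes with the smallest adjusted p, plus ligands, receptors and kinases; members named without a call were chosen for contrast after their values were seen. The members and lists were chosen with earlier results of these data known.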

Additional observations from a re-analysis of the deposited data

Results flagged for a closer look

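A test of the difference between the lines picked out 9 results. For 6-thio-dG, the log2 fold change in LOX-IMVI BR minus that in A375 was -4.57 for GBP2, -3.56 for OAS1, -3.20 for IFI6, -3.09 for OAS2, -2.95 for OASL, -1.70 for OAS3 and -1.55 for STAT2. For BIBR1532 it was -2.49 for OAS2 and -1.69 for IRF7. All 9 had an adjusted p under 0.05 in edgeR's quasi-likelihood test of the interaction. The GBP2, OAS1, OAS2 and IFI6 differences for 6-thio-dG were called in every alternative tried. What sets the lines apart was not tested.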

How the results depend on the processing

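No call on a member changed direction under any alternative. Numbers of members called that moved by over 1.5 times were as follows. With upper-quartile factors, 6-thio-dG in A375 gave 11 in place of 6. The GC correction gave 10 for 6-thio-dG in A375, 4 for BIBR1532 in LOX-IMVI BR (1 without it) and 5 for the BIBR1532 difference between the lines (2 without it). A form with TMM computed again on the corrected counts, chosen after seeing the data, gave 14, 5 and 7 for these, and 13 for the 6-thio-dG difference (7 without it). All genes called rose too, to 32.8%, 10% and 14.5% with the first form and to 34.8%, 12.5%, 17.1% and 21.1% with the second. Each line fitted alone gave 1 (6-thio-dG), 3 (BIBR1532) and 1 (the compounds against each other) in A375, and 27, 17 and 28 in LOX-IMVI BR, where 62.8%, 44.8% and 66.9% of all genes were called (5.11%, 3.85% and 6.68% in A375). For the BIBR1532 difference, DESeq2's test gave 5 and no low-count filter 6. Upper-quartile factors moved the median of all genes by 0.39 (6-thio-dG) and 0.23 (BIBR1532) in A375 and by 0.23 and -0.12 in LOX-IMVI BR, on the log2 scale.

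Leaving out 1 library gave 5 to 21 for 6-thio-dG in A375, 4 to 11 for BIBR1532 in A375, 4 to 7 and 0 to 1 for these in LOX-IMVI BR, 2 to 15 (A375) and 9 to 13 (LOX-IMVI BR) between the compounds, 4 to 14 and 0 to 5 for the differences between the lines, and 22 to 26 between the controls. Where this left 1 library in a group, it was assumed to vary like the others.

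With 2 libraries per group, whether the replicate numbers pair the samples could not be decided. The correlations of same-numbered deviations were -0.09, -0.14 and 0.35 in A375 and -0.00, 0.03 and 0.02 in LOX-IMVI BR. The value of 0.35 was that of 6-thio-dG with BIBR1532. A replicate block gave 1 in place of 2 for the BIBR1532 difference and moved no other number by over 1.5 times. With the A375 control numbers crossed, added after seeing the data, the block gave 13 members for BIBR1532 in A375 in place of 11.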
